A study of Mus musculus with 8 samples.

Results

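The STAT genes encode transcription factors that carry cytokine signals from the cell surface to the nucleus. Of these genes, 6 were found by name in the deposited table of 18138 gene names: Stat2, Stat3, Stat4, Stat5a, Stat5b and Stat6. The cells were CD8+ T cells of OT-1 mice, which carry a transgenic receptor for the ovalbumin peptide SIINFEKL presented by H2-Kb. In one group the T cells had met B cells activated through CD40 (cB) and in the other dendritic cells (DC). Both kinds of stimulator were grown in culture, matured with LPS and loaded with the peptide, and both cocultures lasted 24 h at a ratio of 5 to 1. T cells positive for CD8 and for the activation marker CD69 were then sorted, and RNA from each group went onto 4 arrays of the Illumina mouse-ref8-v2.0 type. There was no unstimulated group, so all values compare one kind of stimulation with the other. The labels do not say whether replicates came from separate cultures or mice, and the spread behind each p-value, that between these arrays, may be technical.

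A cytokine that binds its receptor activates JAK kinases, which phosphorylate STAT proteins on a tyrosine; the phosphorylated proteins pair, enter the nucleus and bind DNA. In T cells STAT4 is known for carrying IL-12 signals, STAT5A and STAT5B for IL-2 and IL-7, STAT3 for IL-6, IL-10 and IL-21, and STAT6 for IL-4. STAT2 acts with IRF9 downstream of type I interferon. Arrays measure RNA and not phosphorylation, so none of the values below is a measure of STAT activity.

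Several STAT genes are known to be controlled by cytokines themselves, so the bases before the transcript starts of the members are shown where they matter for the comparison. RefSeq (GRCm38.p6) held 9 start sites for the 6 members, and 250 bases before each were searched on both strands for 3 motifs. The core of the interferon-stimulated response element (ISRE), which the complex of STAT2 and IRF9 binds, was written as TTTC, any 2 bases and TTTC. The gamma-activated site, to which STAT dimers bind, was TTC, any 3 bases and GAA, and its wider form, which STAT6 prefers, TTC, any 4 bases and GAA. Stat2 and Stat3 are shown as the 2 members that passed the test described below, and the second start of Stat4 as the other window with a match. Capitals mark the matches, and each sequence runs 5′ to 3′ toward the start.
Stat2, plus strand, chr10:128270248-128270497: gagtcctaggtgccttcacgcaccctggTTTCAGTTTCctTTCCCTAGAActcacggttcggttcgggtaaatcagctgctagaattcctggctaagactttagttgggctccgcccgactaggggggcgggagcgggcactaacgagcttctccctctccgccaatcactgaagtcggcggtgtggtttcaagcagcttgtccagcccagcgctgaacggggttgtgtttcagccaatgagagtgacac
Stat3, minus strand, chr11:100939541-100939790: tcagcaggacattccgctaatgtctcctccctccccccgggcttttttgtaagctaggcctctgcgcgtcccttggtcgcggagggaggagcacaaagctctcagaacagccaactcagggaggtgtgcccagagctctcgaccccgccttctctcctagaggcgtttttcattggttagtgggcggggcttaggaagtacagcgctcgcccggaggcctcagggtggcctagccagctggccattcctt
Stat4, second start, plus strand, chr1:52007990-52008239: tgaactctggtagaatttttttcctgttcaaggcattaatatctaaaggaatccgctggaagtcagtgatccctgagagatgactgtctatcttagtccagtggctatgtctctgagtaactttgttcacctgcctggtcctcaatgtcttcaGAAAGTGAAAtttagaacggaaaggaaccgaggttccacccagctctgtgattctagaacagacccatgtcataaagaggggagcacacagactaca

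The Stat2 window held the ISRE core at bases 222 to 213 before the start and, next to it without overlap, the wider gamma-activated form at bases 210 to 201. The Stat4 window held the ISRE core on the opposite strand at bases 97 to 88. The ISRE core was present in 2.98% of all 32851 promoter windows of the same length, the wider form in 5.85% and the gamma-activated site in 7.02%. No window of Stat3, Stat5a, Stat5b or Stat6 held any of the 3 motifs, which says only that these letters are not there. In the mouse genome Stat5b, Stat5a and Stat3 are neighbours on chromosome 11, Stat2 and Stat6 both lie on chromosome 10, and Stat4 lies on chromosome 1.

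Between 38.3% and 40.8% of gene names were detected per array at a detection p below 0.05, and mean intensity lay between 601.6 and 824.1. The lowest correlation of 2 arrays of the same group was 0.979, and the highest of 2 arrays of different groups was 0.883. On the second principal component, with 4.33% of the variance, cB replicate 4 lay at -23.1 and the other 7 arrays between -3.7 and 13.4. It was also the array that most often stood apart from its group by Dixon's criterion, in 2.37% of tested genes against 0.907% to 1.60% for the others. The number of arrays limits the precision of every value. Of the T cell markers 12 were in the table and 11 were tested, 2 higher in cB, 4 in DC and 5 not past the threshold, with a median of -0.06; with median scaling 2 were higher in cB and 1 in DC (median 0.08), and 4 were higher in cB without DC replicate 3. Of these markers, Cd8b1, the CD8 beta chain gene, was detected on all arrays (log2 difference -0.06 ± 0.11, SE, adjusted p = 0.67), while Cd8a was detected on none. Zap70 was lower in cB (-0.88 ± 0.11) and Thy1 higher (0.90 ± 0.14). Markers of the stimulator cells were present too. B cell markers passed mostly toward cB, 3 of 5 tested against 1 toward DC (median 1.01), and markers of myeloid and dendritic cells mostly toward DC, 6 of 7 tested against 1 toward cB (median -1.15). Fcmr and Cd79b of the former were undetected on DC arrays, and Cd14 and Il1b of the latter on cB arrays. These genes could therefore enter the test only by being higher in the other group. Pou2af1, the brightest tested B cell marker, was lower in cB (-1.27 ± 0.16). Among the myeloid markers Zbtb46 was lower in cB (-2.18 ± 0.16), Fscn1 was higher (1.47 ± 0.21), and the brightest, Cst3, differed by -0.26 ± 0.10. Only 1 of the 5 tested B cell markers and 2 of the 7 tested myeloid markers were detected on all arrays. The B cell median turned to between -1.31 and -0.60 without any 1 cB array. When all genes set the background, the B cell median was 0.09 and the myeloid median -0.27. In the authors' gene-level values they were 0.36 and -0.38. Summed intensity over all 13 B cell markers in the table was 2650 to 3036 on cB arrays and 2636 to 3037 on DC arrays. Over the 15 myeloid markers it was 4844 to 6312 on cB arrays and 6437 to 6677 on DC arrays. These sums are of uncorrected intensities and include the background of undetected genes, so they do not measure the amount of stimulator cell RNA. Pax5, Cr2, Cd22 and Blk were not detected on any array, nor were Itgax, Itgam, Csf1r, Lyz1, Cd209a and Flt3. The part of these cells in the STAT values was not tested, and in bulk RNA fewer cells of a type cannot be told from less RNA per cell.

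Of the 6 members 4 were detected on all 8 arrays and tested, and 2 of these, Stat2 and Stat3, were lower in cB than in DC. Stat4 and Stat5a did not pass, Stat5b was not detected on any array, and Stat6, detected on 1 array, was not tested. With limma over all genes 61.4% of the 7167 tested genes passed an adjusted p of 0.05 (Benjamini-Hochberg), 29.8% higher in cB and 31.6% higher in DC, so 2 of 4 is near the background. All log2 differences below are cB minus DC followed by the standard error (SE) that limma gave for 4 arrays in each group, and their median over all tested genes was -0.03. Levels are normalized log2 intensities, and levels of different genes are not compared because each has its own probes.

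**Figure D1:**
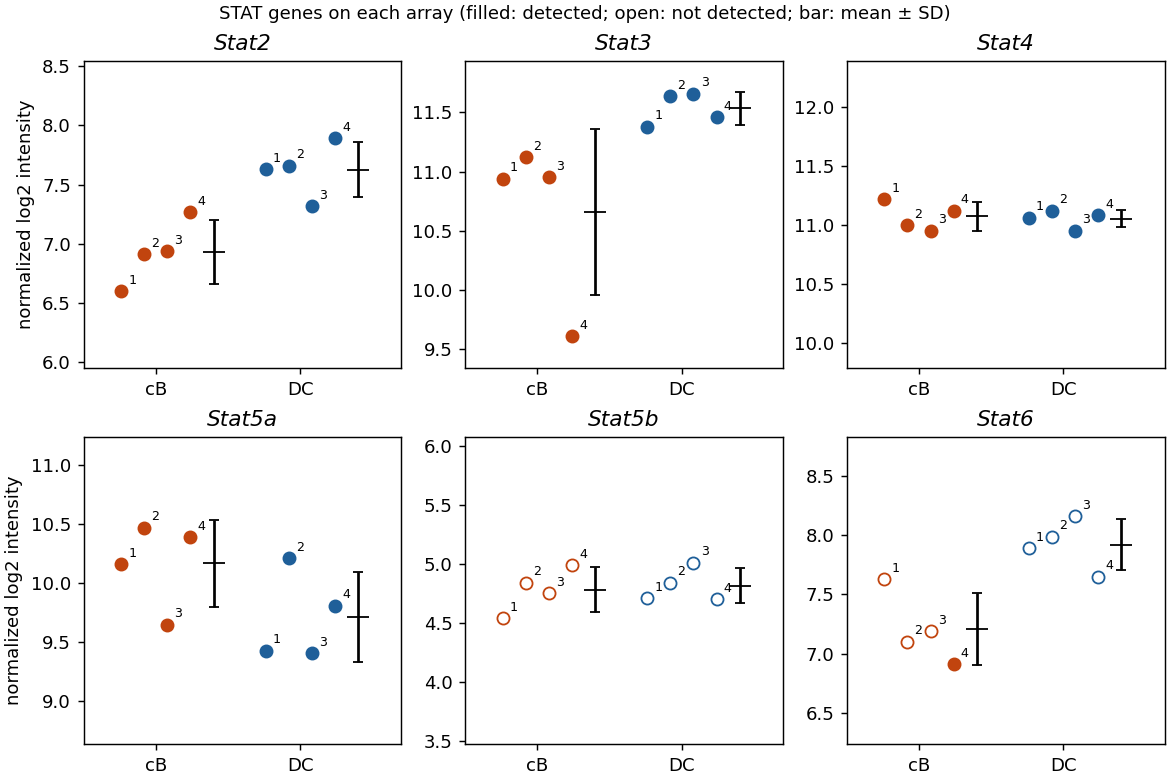
Normalized log2 intensity of the 6 STAT genes on each array, in cB (red) and DC (blue); numbers are replicates, filled points mark arrays where the gene was detected, and the black bar is the mean ± SD over 4 arrays. Every panel spans equally many log2 units; Stat2, Stat3 and Stat6 do not overlap between groups, and cB replicate 4 lies far below the other cB arrays for Stat3.

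Stat2, the partner of IRF9 in the interferon-activated complex, was 1.62-fold lower in cB. Its log2 value was 6.60, 6.91, 6.94 and 7.27 on cB replicates 1 to 4, and 7.63, 7.66, 7.32 and 7.89 on DC replicates 1 to 4. Every DC array lay above every cB array, by a small margin between cB replicate 4 and DC replicate 3. The difference was -0.69 ± 0.16 (adjusted p = 0.0044). Groups did not overlap in 56.8% of all tested genes, with DC above in 29.1% and cB above in 27.7%. Stat2 was dim, with intensities between 232.6 and 359.1, and the size of its change moved with the background setting: the difference was -0.17 when all genes, rather than those with regular detection p-values, set the background, -0.34 with no background correction and -0.36 in the authors' gene-level values, each past the threshold.

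IRF9, which gives the STAT2 complex its contact with DNA, is encoded by Irf9, and this gene was also lower in cB (-1.87 ± 0.15, adjusted p = 3.4e-06). Of 18 listed target genes of the complex 16 were in the table and 8 were tested, of which 5 were lower and 1 higher in cB. Their median was -1.35 against -0.03 over all tested genes, of which 31.6% were lower and 29.8% higher in cB. Mx2 and Rsad2, both encoding antiviral effectors, and Irf7, a regulator of interferon genes, were not detected on any cB array. They were at least 5.55-fold (adjusted p = 1.4e-07), 4.17-fold (8.4e-05) and 2.18-fold (0.00021) higher in DC under the background setting used here. Genes detected only in DC could enter the test only by being higher there. Ifi35, an interferon-induced gene, differed by -1.38 ± 0.12 and Usp18, which encodes an inhibitor of the interferon receptor, by -1.46 ± 0.29. Ifit2, detected on 1 DC array and on all cB arrays, went the other way (0.88 ± 0.15, adjusted p = 0.00068). Only 3 of the 8 were detected on all 8 arrays, and with any 1 DC array left out, when genes detected only in DC fell short of the 4 arrays needed, 5 were tested, 2 lower and 1 higher in cB, with a median between -0.22 and -0.01. The median was also -0.21 when all genes set the background and -0.67 in the authors' gene-level values. On the same DC arrays the myeloid marker Cd14 exceeded its cB level at least 5.03-fold (adjusted p = 1.9e-05), and its part in these values was not tested.

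Stat3, the factor downstream of IL-6, IL-10 and IL-21, was 1.85-fold lower in cB. Its log2 value was 10.94, 11.12 and 10.95 on cB replicates 1 to 3 and 9.61 on cB replicate 4. On DC replicates 1 to 4 it was 11.38, 11.64, 11.66 and 11.46. All DC arrays lay above all cB arrays, and cB replicate 4 lay far below the rest of its group. The difference was -0.88 ± 0.29 (adjusted p = 0.025), and 28.6% of tested genes differed by more. Only 2.94% of tested genes had a larger spread within groups than Stat3 (pooled SD 0.51). Without cB replicate 4 the difference was -0.53 with adjusted p = 0.0027, and without DC replicate 2 or DC replicate 3 it was -0.85 in both cases and no longer passed (adjusted p = 0.055 and 0.056).

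Of 13 listed STAT3 targets 10 were tested, of which 8 were lower and 1 higher in cB, with a median of -1.17. Among all tested genes 31.6% were lower and 29.8% higher in cB, with a median of -0.03. The STAT4, STAT5 and STAT6 target counts below are to be read beside the same shares. Bcl6, which encodes a transcriptional repressor of memory and follicular T cells, differed by -2.51 ± 0.19, the AP-1 gene Junb by -1.56 ± 0.12 and Hif1a, the hypoxia-response factor gene, by -1.64 ± 0.19. Fos (-1.76 ± 0.22), the kinase gene Pim1 (-1.67 ± 0.25, detected on 2 cB arrays) and the survival gene Mcl1 (-0.62 ± 0.10) were also lower in cB. Batf, an AP-1 family gene of effector T cells, was higher in cB (2.22 ± 0.14, adjusted p = 8.9e-07). Socs3, the feedback inhibitor best known as a STAT3 target, did not pass (0.31 ± 0.19, adjusted p = 0.18). Junb, Fos, Mcl1 and Hif1a also respond to T cell receptor signals, so the list is not particular to STAT3. The list's median was -0.64 with no background correction and -0.65 in the authors' gene-level values.

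Stat4, the IL-12 responsive factor of effector T cells, did not differ detectably. Its log2 value was 11.22, 11.00, 10.95 and 11.12 on cB replicates 1 to 4, and 11.06, 11.12, 10.95 and 11.08 on DC replicates 1 to 4. The groups overlapped, and the difference was 0.02 ± 0.10 with a 95% confidence interval from -0.20 to 0.24 (adjusted p = 0.89). Its intensities were high, between 1808 and 2740, yet its detection p-value rose to 0.0408. Detection p-values of Stat4 and Stat6 were not whole steps of a rank among negative controls, as was the case for 4209 of the gene names. Of the 230 such genes with a median intensity above 1000, 115 had a median detection p above 0.001, against 5 of 1931 bright genes on the step. The rule behind those p-values is not stated in the labels or headers.

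The listed STAT4 targets moved in both directions, with 4 of 6 tested genes higher and 2 lower in cB and a median of 0.58. Ifng, the interferon-gamma gene, was higher by 7.31 ± 0.30 (adjusted p = 4.9e-08), and Map3k8, a kinase gene, by 0.73 ± 0.17. Il18r1, an IL-18 receptor gene, was not detected in DC and was at least 1.91-fold higher in cB (adjusted p = 0.00021), the group through which alone it could enter the test. Gadd45g, which encodes a stress-response protein, was higher by 0.44 ± 0.11. Tbx21, which encodes T-bet, was lower in cB (-1.51 ± 0.12, adjusted p = 3.9e-06), as was the IL-12 receptor gene Il12rb2 (-0.46 ± 0.18, adjusted p = 0.048). Without any 1 cB array 5 targets were tested and 3 were higher in cB. The count of lower genes was 1 when all genes set the background (median 0.30), with median scaling, with no detection filter and without cB replicate 1 or 2 or DC replicate 1, 2 or 3.

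Stat5a, which carries IL-2 family signals, had the higher mean in cB but did not pass. Its log2 value was 10.16, 10.47, 9.65 and 10.39 on cB replicates 1 to 4, and 9.43, 10.21, 9.41 and 9.81 on DC replicates 1 to 4. The groups overlapped, since cB replicate 3 lay below DC replicates 2 and 4. The difference was 0.45 ± 0.22 with a 95% confidence interval from -0.05 to 0.95 (adjusted p = 0.10). It passed with median scaling (0.49, adjusted p = 0.037) and in the authors' gene-level values (0.39, adjusted p = 0.048). It also passed without cB replicate 3 (0.62, adjusted p = 0.026) and without DC replicate 2 (0.62, adjusted p = 0.029).

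Stat5b, the close paralogue of Stat5a and its neighbour on chromosome 11, was not well above background on any array. Intensities were 133.1, 144.9, 151.5 and 171.9 on cB replicates 1 to 4, and 147.9, 149.5, 168.2 and 138.2 on DC replicates 1 to 4. The lowest detection p was 0.302, so these values give no comparison between the groups and say only that the probe did not report the gene.

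The listed STAT5 targets moved in both directions, with 6 of 15 tested genes higher and 4 lower in cB and a median of -0.02, which was 0.15 in the authors' gene-level values. The cyclin gene Ccnd3 (1.60 ± 0.11), the IL-2 receptor alpha chain gene Il2ra (0.68 ± 0.14) and the kinase gene Pim2 (0.45 ± 0.13) were higher in cB, and Gzmb, the granzyme B gene, which was undetected on DC arrays, was at least 2.83-fold higher (adjusted p = 2.1e-06) and, like Il18r1, could enter the test only by being higher in cB. Cish, a feedback inhibitor gene induced by STAT5, was lower in cB (-1.33 ± 0.14), as were the cytokine gene Lif (-2.05 ± 0.14) and the survival gene Bcl2l1 (-0.56 ± 0.13). Socs2, another feedback inhibitor, differed by 0.51 ± 0.33 and did not pass (adjusted p = 0.20).

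Stat6, the factor downstream of IL-4, was left out of the test because only cB replicate 4 had a detection p below 0.05. Those p-values, which were not whole rank steps, did not follow intensity. DC replicate 3 was at 476.7 with a detection p of 0.221, and cB replicate 4 at 282.3 with 0.000962. Intensities of Stat6, 244.1 to 476.7, were no lower than those of Stat2, 232.6 to 359.1, which was detected on all arrays. Being left out therefore does not show that Stat6 was absent. Its log2 value was 7.63, 7.10, 7.19 and 6.91 on cB replicates 1 to 4, and 7.89, 7.99, 8.16 and 7.65 on DC replicates 1 to 4. All DC arrays lay above all cB arrays, with DC replicate 4 just above cB replicate 1. Fitted with no detection filter, over all 18138 genes, the difference was -0.72 ± 0.16 (adjusted p = 0.0069). In the authors' gene-level values, where Stat6 was kept, it was -0.41 ± 0.10 (adjusted p = 0.0020), also without overlap. Without the filter it was -0.22 when all genes set the background and -0.39 when none was corrected for. Of 9 listed STAT6 targets 2 were tested: Il24, a cytokine gene undetected in DC, was at least 19.1-fold higher in cB (adjusted p = 9.0e-09), and Gata3, a transcription factor gene, was lower (-1.64 ± 0.16). Il24 could enter the test only through cB, and without any 1 cB array Gata3 alone was tested.

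**Figure D2:**
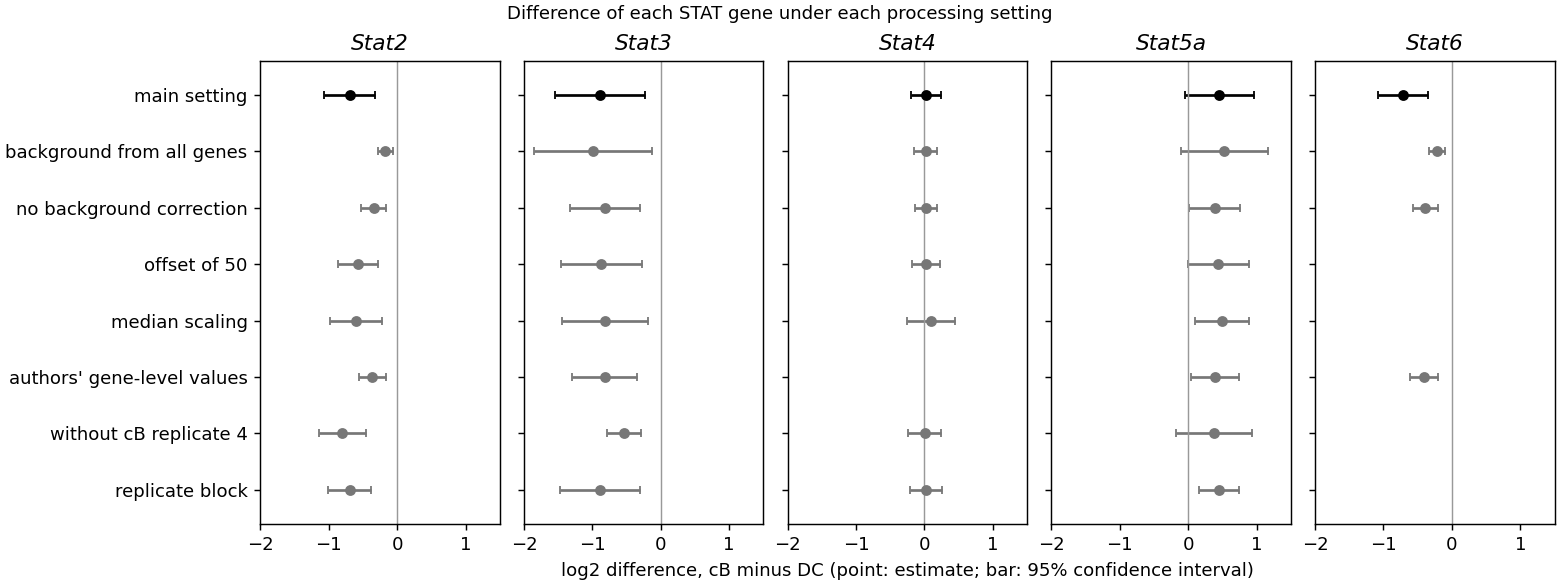
Log2 difference, cB minus DC, of 5 STAT genes under each processing setting, with points for estimates and bars for 95% confidence intervals; for Stat6, which the detection filter removes, the first 3 rows are without that filter. The differences of Stat2 and Stat6 shrink toward 0 with the other background settings while that of Stat3 lies between -0.99 and -0.53 over the 8 settings drawn, smallest without cB replicate 4.

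Whether the members changed unequally was tested on the difference between 2 members within each array. All 6 pairs of the 4 tested members were compared by a two-sided exact permutation test of the group labels, in which the smallest p possible is 0.0286. The Stat3 value minus the Stat5a value was 0.48 ± 0.89 in cB and 1.82 ± 0.36 in DC (SD, n = 4), a difference of -1.34 with adjusted p = 0.0429 by the exact test. For Stat2 and Stat5a the difference was -1.15, for Stat3 and Stat4 -0.90 and for Stat2 and Stat4 -0.71, each with adjusted p = 0.0429 by the exact test and no overlap between groups. Thus, under the setting used here, Stat2 and Stat3 each moved unequally with Stat4 and with Stat5a. These 4 pairs share members and all lie at the smallest possible p. Their adjusted p-values therefore depend on one another, and the calls are not 4 separate findings. Stat4 itself hardly differed (0.02 ± 0.10). Its pairs with Stat2 and Stat3 therefore largely repeat the differences of those genes given above, -0.69 and -0.88. Stat2 and Stat3 differed by 0.19 (adjusted p = 0.886, exact test), and Stat4 and Stat5a by -0.44 (adjusted p = 0.171, exact test). The calls do not hold under every setting: when all genes set the background, when none was corrected for and with any array but cB replicate 3 left out, the adjusted p of all 4 was 0.0571 or higher, while their direction was kept.

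By root mean square distance over the 8 arrays, each gene centred on its own mean, the genes nearest to each member were as follows. Nearest to Stat2 were Hip1r at 0.11 log2 units and Tmub1 at 0.12, where the median distance of all tested genes was 0.51. Nearest to Stat3 were Map3k3, a kinase gene of the MAP kinase cascade, at 0.12 and Crtc3, a CREB coactivator gene, at 0.13, with a median of 0.69. Both shared the low value of cB replicate 4: Map3k3 was at 7.17 there and between 8.56 and 8.77 on the other cB arrays, and Crtc3 at 5.43 and between 6.50 and 6.83. Nearest to Stat4 were Dars and Tsr3, both at 0.05 (median 0.36), and nearest to Stat5a were Ahcy and H2-DMb1, both at 0.14 (median 0.53). Like Stat5a, both were higher on cB replicates 1, 2 and 4 than on cB replicate 3. These distances describe 8 arrays and carry no test.

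**Figure D3:**
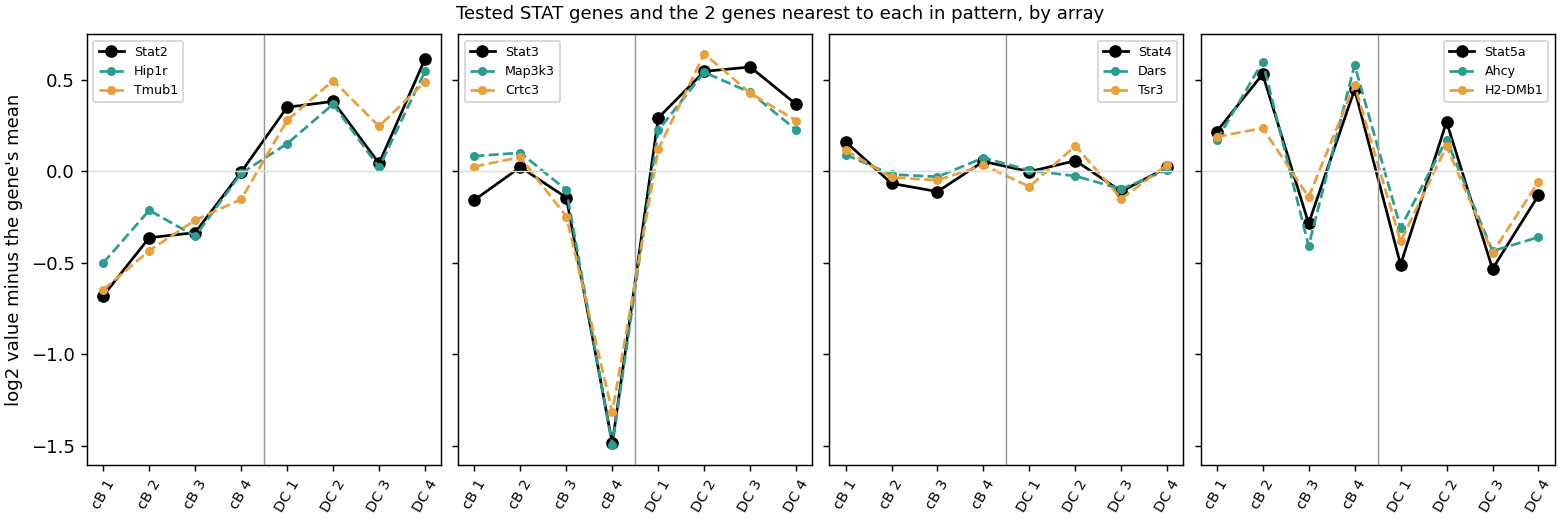
Log2 values of the 4 tested STAT genes (black) and of the 2 tested genes nearest to each in pattern, by array, each gene centred on its own mean; lines only join the points of a gene. The low value of Stat3 on cB replicate 4 is shared by Map3k3 and Crtc3, and the profile of Stat4 is nearly flat.

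The genes that act before the STAT factors were counted from lists, which are described by their counts and medians and carry no test of their own. All 3 tested JAK kinase genes were lower in cB, with a median of -0.78. Over all tested genes 31.6% were lower in cB and 29.8% higher. The receptor, cytokine, inhibitor and partner counts below are to be read beside the same shares. Tyk2, the kinase of the type I interferon and IL-12 receptors, differed by -1.10 ± 0.12 (adjusted p = 2.5e-05), Jak1 by -0.78 ± 0.22 and Jak3, the kinase of the common gamma chain, by -0.48 ± 0.14. Jak1 was detected on 1 cB array and 3 DC arrays, and its groups overlapped. The JAK median was -0.41 with no background correction. Of the 3 genes 2 passed when all genes set the background and with median scaling.

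Receptor genes went both ways: of 15 tested, 6 were higher and 8 lower in cB, with a median of -0.46. Il12rb1, a chain of the IL-12 receptor, was higher in cB (1.77 ± 0.11, adjusted p = 8.6e-07), as were Il27ra (1.15 ± 0.11) and Il7r (1.09 ± 0.14). Ifngr1, the ligand-binding chain of the interferon-gamma receptor, was lower in cB (-3.22 ± 0.23, adjusted p = 1.7e-06), as were the common gamma chain gene Il2rg (-0.98 ± 0.09) and Il6st, which encodes gp130 (-1.12 ± 0.21), though Il6st was detected on only 1 cB array and its level there is mostly not above background. Il4ra, the receptor chain through which STAT6 is activated, was not detected on any array. The count of lower genes was 5 when all genes set the background and with median scaling, against 6 higher in both. The median was -0.05 in the first of these and -0.18 in the authors' gene-level values. Of 7 tested cytokine genes 4 were higher in cB, among them Ifng, Il3 (2.56 ± 0.19) and Csf2 (1.59 ± 0.33), which was detected on only 1 DC array, and 1, Lif, was lower, with a median of 0.44. The median was 1.59 over the 5 genes left with a detection p below 0.01 and 0.12 with no detection filter.

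Of 15 tested inhibitors of STAT signalling 8 were lower and 1 higher in cB, with a median of -0.53. Cish, Socs4 (-1.26 ± 0.13), Socs5 (-2.16 ± 0.24) and Socs1 (-1.05 ± 0.21, detected on 3 cB arrays) of the suppressor of cytokine signalling family were lower. So were Pias1 (-1.13 ± 0.10) and Pias3 (-1.10 ± 0.12), which encode proteins that bind activated STAT factors. The other tested genes of the suppressor family, Socs2 (0.51 ± 0.33), Socs3 (0.31 ± 0.19) and Socs6 (-0.31 ± 0.20), did not pass. Ptpn1, a phosphatase gene, was higher in cB (1.33 ± 0.30, adjusted p = 0.0035). All 4 tested genes of the list of partners and coactivators were lower in cB, with a median of -1.12. They were Irf9, the acetyltransferase gene Ep300 (-1.59 ± 0.30), Ndufa13 (-0.65 ± 0.10), whose product binds STAT3, and Stam (-0.44 ± 0.14). Stam, a signalling adaptor gene on the list and not strictly a STAT partner, was detected on 1 cB array, and its groups overlapped. The inhibitor median was -0.15 when all genes set the background, and that of the partners -0.44 over 7 genes with no detection filter. Of the 4 partner genes 3 passed when all genes set the background, with no background correction and with median scaling. In the authors' gene-level values 3 of 5 passed as lower in cB, with a median of -0.65. Of the myeloid markers 7 were tested, and 6 passed toward DC against 1 toward cB, but only 2 were detected on all arrays. Cd14 and Il1b, undetected in cB, could enter only through DC. With any 1 DC array left out 5 were tested, and 3 or 4 passed toward DC. The part of stimulator cell RNA in the inhibitor and partner values was not tested.

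**Figure D4:**
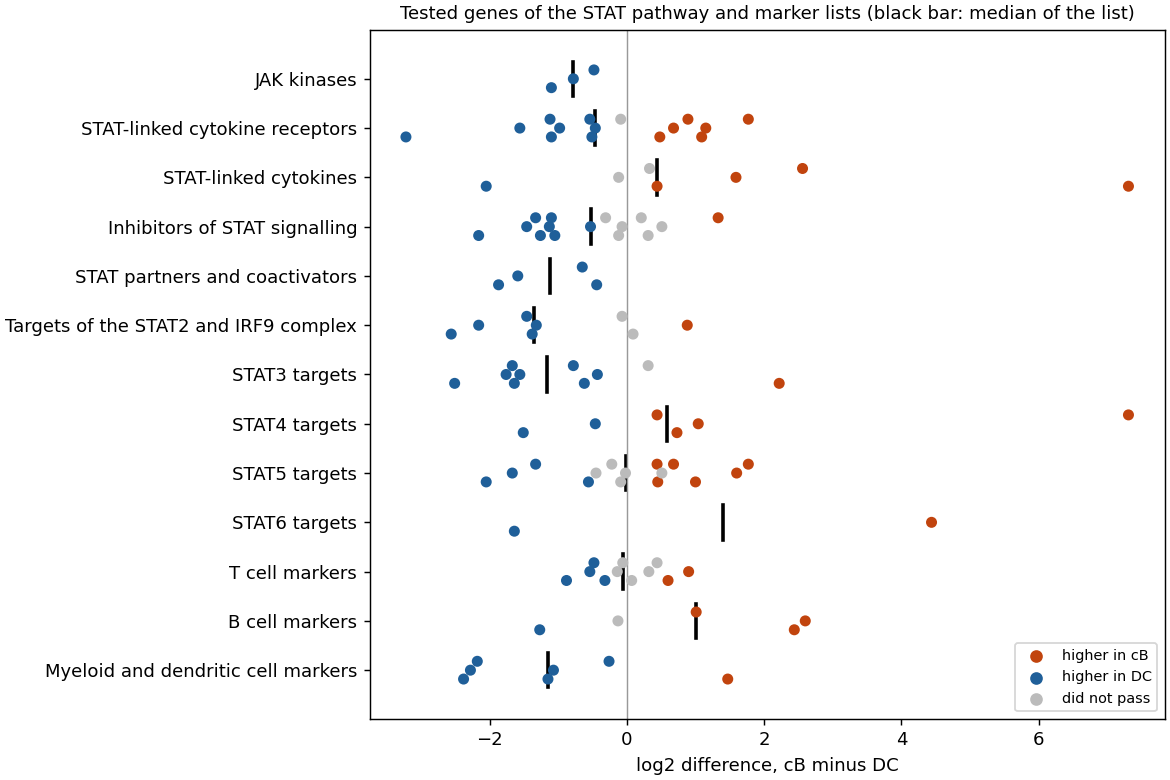
Log2 difference, cB minus DC, of every tested gene in 10 lists of the STAT pathway and 3 lists of cell type markers; points are genes, red for higher in cB, blue for higher in DC and grey for not past the threshold, and the black bar is the median of the list. Kinases, partners and STAT3 targets lie mostly on the DC side, and STAT4 and STAT5 targets on both.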

How the data were processed

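RNA of 8 samples of sorted OT-1 cells was measured on beadchips, and each array was assigned to its group and replicate from its title. The authors' non-normalized table gives the average bead signal, an intensity, and a detection p-value per gene name, per the file headers. The authors deposited normalized log2 values too, for 4 of the 6 members; how they were normalized is not stated in the labels or headers. Log2 values were computed here with limma 3.58.1 in R 4.3.3: normexp background estimated from detection p-values that are whole steps of 1 in 798 (tolerance 0.001), offset 16, and quantile normalization. The test (lmFit, eBayes, adjusted p below 0.05) took every gene detected, at p below 0.05, on 4 or more arrays. A gene undetected in a group is given as "at least" N-fold, its dim level on each array raised to the lowest value of any detected gene where it lay below that.

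The members, lists and the background setting were chosen with earlier results of these data known. The rule for naming took the members, up to 4 genes per list by lowest p, the brightest markers and the 2 nearest genes. Not all of these are named in the text, and other list members were named after their values were seen. The fit was tested on simulated data. Promoters are RefSeq's, matched by symbol for all 6 members. Probe-level values carry no gene names and were not used here. Cd69, the sort marker, differed by -2.15 ± 0.13.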

Additional observations from a re-analysis of the deposited data

Results flagged for a closer look

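Among the members and the list genes named by rule, 108 groups of 4 arrays were examined for an array far from the others by Dixon's criterion at the 95% level, and 4 had one; chance alone gives about 1 in 20. Stat3 was at 9.61 on cB replicate 4, with the nearest cB array at 10.94. Il12rb1, the IL-12 receptor gene, was at 7.55 on DC replicate 3, with the nearest DC array at 7.23. Mx2 was at 4.77 on cB replicate 1, where it was not detected, with the nearest at 5.11. Ctss, a myeloid marker gene, was at 5.20 on cB replicate 2, with the nearest at 5.50.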

How the results depend on the processing

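Stat2 kept its direction and its call under 9 alternatives (-0.69 to -0.17) and with any array left out (-0.80 to -0.58). Stat3 kept both under 9 alternatives (-0.99 to -0.81), and with an array left out lay between -1.04 and -0.53, with adjusted p up to 0.056. Stat4 did not pass under any setting run, and its sign turned without cB replicate 1 or DC replicate 3 (range with an array left out -0.03 to 0.06). Stat5a passed with median scaling (0.49), in the authors' gene-level values (0.39) and with the replicate block (0.45, adjusted p = 0.016), and lay between 0.35 and 0.62 with an array left out. The replicate numbers are not shown to pair the arrays: 3 of 4 same-numbered pairs had residual correlations above 0.1 (0.082 for number 4), though each cB array correlated best with its own number. The block changed no other call of a member and gave 4431 calls over all genes against 4397. For the pairs Stat2 and Stat4, Stat2 and Stat5a, Stat3 and Stat4, and Stat3 and Stat5a, the differences were -0.19, -0.70, -1.01 and -1.52 with the background from all genes and -0.36, -0.73, -0.83 and -1.20 with no background correction, none past the threshold. In the authors' values Stat2 and Stat5a gave -0.76 and Stat3 and Stat5a -1.21, not past it either. With an array left out they ranged from -0.80 to -0.55, -1.32 to -1.04, -1.08 to -0.54 and -1.60 to -0.91. The cause was not tested. Of 663 list values recomputed 561 stayed close to those given, and 21 of 221 medians changed sign, all of them medians of STAT5 targets, STAT6 targets, T cell markers or B cell markers. Stat4 and Stat5b are not in the authors' gene-level values used here. The settings without the detection filter for Stat5b and Stat6 with other backgrounds were chosen after seeing the data. Signal over background limits any reading of Stat5b and the size of the Stat2 and Stat6 differences. Stat6 was left out of the test by detection p-values that were not whole rank steps.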
